A study of Mus musculus with 6 samples.

Results

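The sarcomere is the contractile unit of striated muscle, and 45 mouse genes for its thick filament, thin filament, Z disc and M band proteins were followed in skin wounds in which β-catenin had been lowered or stabilized. The genes were chosen by name and function, with earlier results of these data known. Their values came from 6 single-colour Illumina bead arrays. Of the 45 genes, 40 were named on the array's annotation and 35 had a probe detected (detection p-value under 0.01) on at least 2 of the 6 arrays, among 10266 genes that met the same rule. The brightest such probe stood for each gene. All samples were full thickness wounds of the dorsal skin from mice of the C57/BL6 background, taken 8 days after injury. The titles of all samples say that they were induced after the injury. One model used animals aged 2 months with both Ctnnb1 alleles (the gene of β-catenin) floxed around exon 3, which received an adenovirus carrying Cre, which leaves a stabilized β-catenin (1 array), or an adenovirus carrying green fluorescent protein (GFP control, 1 array). In the other model, all mice had both alleles floxed around exons 2 to 6 and were given tamoxifen, and they either lacked Cre (tamoxifen control, 2 arrays, 4 months) or carried Cre-Esr1, a Cre switched on by tamoxifen (knockdown, 2 arrays, 5 months). The controls thus carried the floxed alleles too, and age differed with genotype in the tamoxifen model. The sources used here state neither which promoter drove Cre-Esr1 nor whether animals were pooled. The labels call the samples biological replicates.

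A sarcomere is built of actin thin filaments, which carry tropomyosin and the calcium-sensing troponin complex, and of myosin thick filaments, anchored at the Z disc and the M band. Most of these proteins exist as fast, slow and developmental isoforms encoded by separate genes. Fast fibres use one set of myosins and troponins and slow fibres another, while developmental isoforms are made in embryonic and newborn muscle and again for a time in regenerating fibres. Mouse back skin has a thin sheet of striated muscle beneath the fat, the panniculus carnosus, so a full thickness wound can include its torn edge. Muscle genes are typically switched on through E-boxes, bound by the MyoD family, through MEF2 sites and through CArG boxes, bound by serum response factor.

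Promoters were at hand for 33 of the 45 genes (RefSeq, GRCm38.p6, 250 bases before to 50 after the annotated start). The E-box form CAGCTG, searched on both strands, was present in 13 of these 33 windows, against 16.1% of 27025 gene windows. A MEF2 site was present in 6 (background 3.26%) and a CArG box in 6 (background 1.57%). Among the genes tested on the arrays that had a window the backgrounds were 15.2%, 1.87% and 1.42%, and among the 25 measured sarcomere genes with a window 11, 6 and 5 held the 3 motifs, in that order. A match is a description of the letters, and binding was not measured. Shown are 5 genes from several classes that held at least 1 of the motifs, and Flnc, whose slope with β-catenin was the smallest and which held none of the 3 in this window, the first of its 2 entries. They were picked after the values were seen, and capitals mark the motif matches. The windows are, in the order below, chr8:123894726-123895025 (minus strand), chr2:114052826-114053125 (minus), chr11:67237562-67237861 (plus), chr11:67276874-67277173 (plus), chr3:123034938-123035237 (minus) and chr6:29432903-29433202 (plus).
Acta1: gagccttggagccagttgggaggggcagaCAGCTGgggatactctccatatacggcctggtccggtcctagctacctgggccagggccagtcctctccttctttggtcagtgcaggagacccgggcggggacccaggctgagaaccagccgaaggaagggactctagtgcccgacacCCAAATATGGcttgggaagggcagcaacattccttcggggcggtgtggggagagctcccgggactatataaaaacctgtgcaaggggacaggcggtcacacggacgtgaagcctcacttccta
Actc1: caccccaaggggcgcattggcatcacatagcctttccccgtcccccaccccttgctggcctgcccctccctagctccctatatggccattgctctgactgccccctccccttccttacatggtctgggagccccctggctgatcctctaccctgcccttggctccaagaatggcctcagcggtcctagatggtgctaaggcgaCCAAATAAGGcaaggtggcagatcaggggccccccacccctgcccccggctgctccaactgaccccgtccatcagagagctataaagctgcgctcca
Myh4: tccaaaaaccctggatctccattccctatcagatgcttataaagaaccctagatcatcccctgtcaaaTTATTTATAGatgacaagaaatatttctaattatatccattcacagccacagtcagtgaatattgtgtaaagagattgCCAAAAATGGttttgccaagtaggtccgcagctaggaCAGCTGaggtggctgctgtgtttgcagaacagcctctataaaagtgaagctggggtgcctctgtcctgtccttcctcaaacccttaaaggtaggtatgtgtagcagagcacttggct
Myh8: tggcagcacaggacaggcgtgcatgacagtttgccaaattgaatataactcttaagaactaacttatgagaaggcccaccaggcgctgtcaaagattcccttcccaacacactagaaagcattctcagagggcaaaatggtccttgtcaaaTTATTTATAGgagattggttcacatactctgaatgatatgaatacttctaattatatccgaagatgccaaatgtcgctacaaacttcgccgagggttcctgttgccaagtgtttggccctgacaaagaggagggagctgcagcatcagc
Myoz2: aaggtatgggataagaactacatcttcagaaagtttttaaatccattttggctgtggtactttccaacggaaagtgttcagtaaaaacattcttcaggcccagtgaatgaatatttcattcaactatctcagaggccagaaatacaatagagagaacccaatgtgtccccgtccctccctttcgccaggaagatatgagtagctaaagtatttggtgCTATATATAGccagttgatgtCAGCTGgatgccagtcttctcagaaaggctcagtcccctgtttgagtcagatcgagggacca
Flnc: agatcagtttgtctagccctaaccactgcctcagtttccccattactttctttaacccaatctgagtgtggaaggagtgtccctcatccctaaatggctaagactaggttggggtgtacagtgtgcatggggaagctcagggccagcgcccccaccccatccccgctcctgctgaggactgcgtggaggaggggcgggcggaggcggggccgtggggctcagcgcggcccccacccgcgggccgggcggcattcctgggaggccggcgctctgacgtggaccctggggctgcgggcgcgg
Acta1, the actin of adult skeletal muscle, has a CAGCTG E-box and, at 73 to 64 bases before the start, a CArG box. Actc1, the cardiac actin that developing skeletal muscle also makes, has a CArG box at 47 to 38 bases before the annotated start. The letters TATAAA lie after that start in Actc1. All distances here count from annotated starts, which were not checked against measured ones. Myh4, the myosin of the fastest fibres, holds a MEF2 site, a CArG box and a CAGCTG E-box. The perinatal myosin Myh8 holds a MEF2 site 99 to 90 bases before its start, and Myoz2, a Z disc protein of slow and cardiac muscle, holds a MEF2 site and an E-box.

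Between 15883 and 16681 probes were detected on an array. The GFP array was the dimmest, with a mean intensity of 544.4 where the other arrays had 648.7 to 714.8, and the stabilized array had the most detected probes. Ctnnb1 itself differed by -0.13 ± 0.16 (log2) in the knockdown and by -0.07 in the stabilized wound at its brightest probe. Whether that probe lies in the floxed exons was not examined, so its level does not check the labels. Skin markers were present on all arrays, with the basal keratin Krt14 between 15.79 and 15.96 and the matrix proteoglycan Dcn between 14.75 and 15.23 (log2 intensity). Values given as log2 below are background-corrected, quantile-normalized intensities with an offset of 16. In the deposited intensities, before any normalization, the 35 sarcomere probes made up 0.254% of the summed signal of the 10266 probes that stood for a gene on the stabilized array, 0.738% on the GFP array, 0.508% and 0.758% on the tamoxifen controls and 1.235% and 1.68% on the knockdown arrays. The share was thus lowest in the stabilized wound and highest in both knockdown wounds, with all controls between. The highest sarcomere intensity, that of Myl1 in knockdown replicate 2, was 54537, below the arrays' highest probes at 65984 to 67175.

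**Figure D1:**
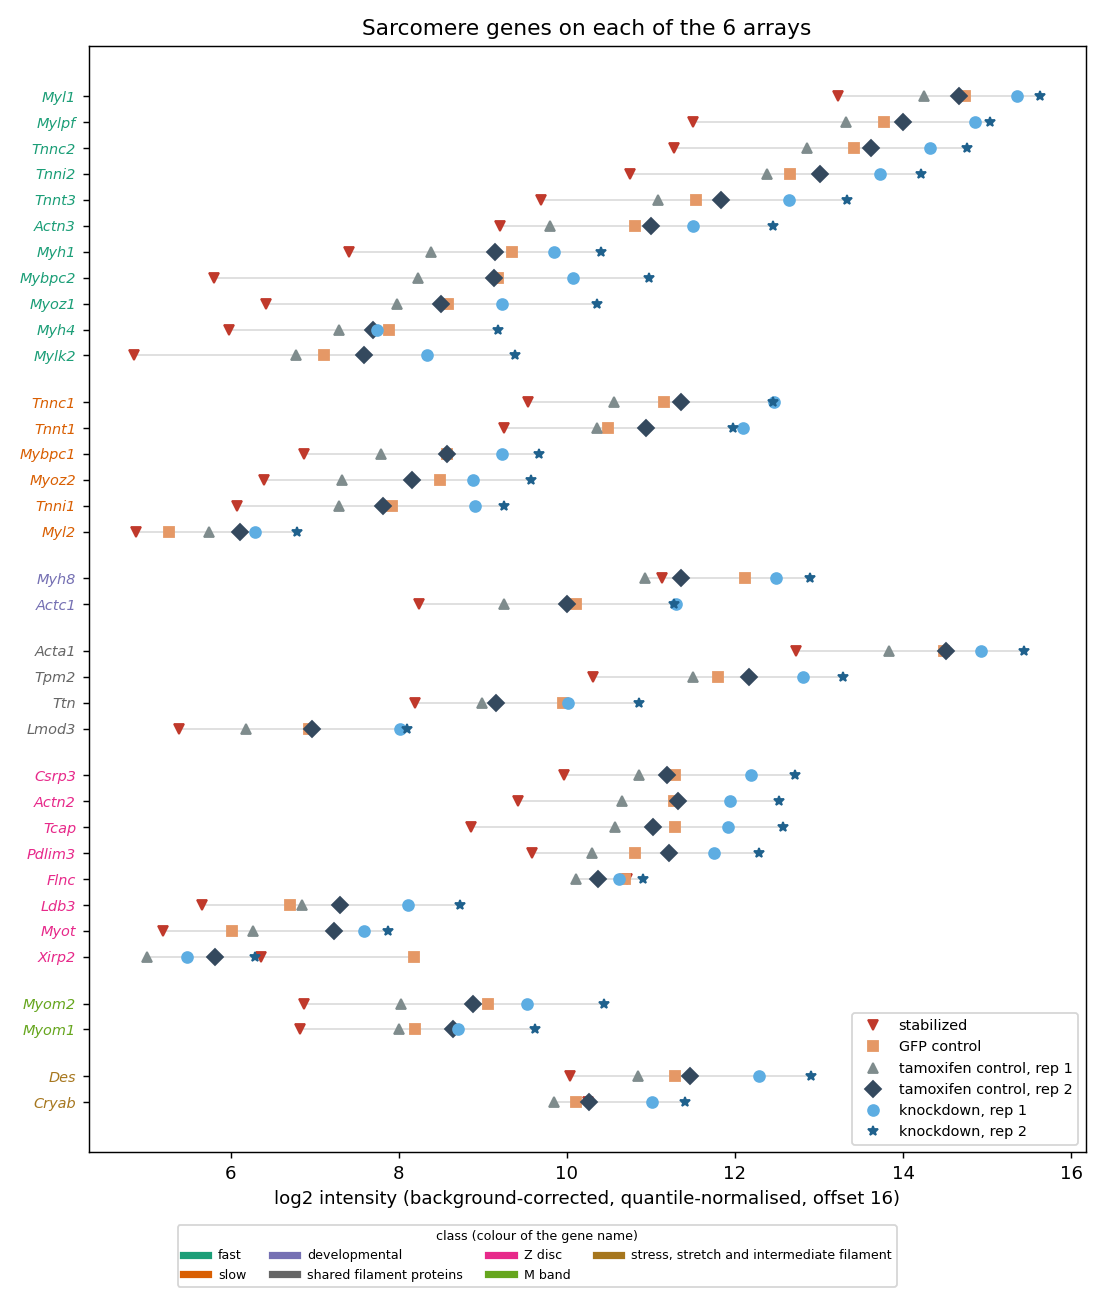
Level of the 35 measured sarcomere genes (rows, grouped by class) on each of the 6 arrays, as log2 intensity, with a grey line from the lowest to the highest array. Both knockdown arrays lie above all other arrays in 32 genes (14.6% of all genes) and the stabilized array is the lowest in 31 (23.3% of all genes). Levels of different genes are not comparable, since each is read by its own probe.

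Sarcomere genes of every class read higher in the knockdown wounds than in the tamoxifen control wounds, but no single gene passed the test over all genes. All 35 measured genes were higher, where 53.3% of all genes were, by a median log2 difference of 1.36, against 0.02 over all genes. Both knockdown arrays lay above both controls in 34 of 35 genes (24.8% of all genes), and 29 were at least 2-fold higher (1.95% of all genes). Gene by gene, 0 of the 35 passed the threshold over all genes (limma, smallest adjusted p = 0.19), as did 0% of all genes in either direction. At an unadjusted p under 0.05 there were 31, against 6.24% of all genes higher at that level. Without knockdown replicate 2 the median difference was 1.07, and 21 genes were at least 2-fold higher, against 150 of all 10266 genes. With 2 arrays against 2, an exact permutation test over samples cannot go below a two-sided p of 0.333. The replicates also differed. Tamoxifen control replicate 2 lay above replicate 1 in all 35 genes, by a median of 0.67, and knockdown replicate 2 lay above replicate 1 in 32, by a median of 0.53. Without tamoxifen control replicate 1, the lower of the controls, 17 genes were at least 2-fold higher (137 of all 10266 genes) and the median was 0.98. Without control replicate 2 the numbers were 32 (320 of all 10266 genes) and 1.68. A bulk sample cannot tell a different number of muscle fibres from a different level of these RNAs in each fibre.

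All fast isoforms read higher on both knockdown arrays than on both tamoxifen controls, and 0 of them passed the adjusted threshold. Of 12 listed, 11 were measured, with a median difference of 1.36 and a range of 0.97 to 1.85. Myl1, the essential light chain of fast myosin, read 14.25 and 14.66 in the tamoxifen controls, 15.35 and 15.63 in the knockdown, 14.73 under GFP and 13.23 with stabilized β-catenin. Its knockdown arrays lay above all controls and its stabilized array below them, with a knockdown difference of 1.04 ± 0.20 (SE; limma, adjusted p = 0.217). Mylpf, the fast regulatory light chain, read 13.32 and 14.00 in the tamoxifen controls, 14.86 and 15.03 in the knockdown, 13.78 under GFP and 11.50 with stabilized β-catenin. It kept the same order of groups, with a knockdown difference of 1.28 ± 0.26 (adjusted p = 0.225). Tnnc2, the fast calcium sensor of the troponin complex, read 12.86 and 13.62, against 14.33 and 14.76 in the knockdown, with 13.41 for GFP and 11.27 for the stabilized wound. Its knockdown difference was 1.31 ± 0.31 (adjusted p = 0.264). Mybpc2, the fast form of a protein that braces the thick filament, differed most of the 35 genes in both models. Mybpc2 read 8.23 and 9.13 in the tamoxifen controls, 10.08 and 10.98 in the knockdown and 9.18 on the GFP array, and it was not detected on the stabilized array (5.80). Its knockdown difference was 1.85 ± 0.43 (adjusted p = 0.252). Of the fast myosin heavy chains, Myh1 (type 2X fibres) differed by 1.36 ± 0.33. Myh4 read 7.28 and 7.70 in the tamoxifen controls against 7.74 and 9.18 in the knockdown, a difference of 0.97 ± 0.49 (adjusted p = 0.567), and knockdown replicate 1 was below the GFP array at 7.89. Tnnt3 and Tnni2, fast troponins T and I, differed by 1.53 ± 0.35 and 1.28 ± 0.28. The Z disc crosslinker of fast fibres, Actn3, the calcineurin-binding Myoz1 and the myosin light chain kinase Mylk2 differed by 1.57 ± 0.50, 1.55 ± 0.41 and 1.68 ± 0.44. Myh2 was not named on the annotation.

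The slow isoforms were higher by about as much. Of 8 listed, 6 were measured, with a median of 1.44 and a range of 0.61 to 1.53, which overlaps that of the fast genes. Tnnc1, the calcium sensor of slow and cardiac troponin, read 10.57 and 11.36 in the tamoxifen controls, 12.46 and 12.45 in the knockdown, 11.16 under GFP and 9.54 with stabilized β-catenin. The 2 knockdown arrays were nearly equal, and the difference was 1.49 ± 0.28 (limma, adjusted p = 0.215). Tnnt1, slow troponin T, read 10.36 and 10.94 against 12.09 and 11.98 in the knockdown, with 10.49 for GFP and 9.25 for the stabilized wound. The difference of 1.39 ± 0.23 had an adjusted p of 0.19, the smallest among the 35 genes and shared with Tnni1, Csrp3, Myh8 and Actc1. Mybpc1, the slow myosin-binding protein, read 7.79 and 8.58 in the tamoxifen controls, 9.23 and 9.67 in the knockdown, 8.57 under GFP and 6.88 with stabilized β-catenin, and differed by 1.27 ± 0.32 (adjusted p = 0.277). Slow troponin I, Tnni1, differed by 1.53 ± 0.24, and Myoz2 by 1.49 ± 0.37. Myl2, the slow and ventricular light chain, was detected on only 3 arrays, tamoxifen control replicate 2 and both knockdowns. Myl2 read 5.74 and 6.12 in the controls against 6.28 and 6.79, a difference of 0.61 ± 0.24 (adjusted p = 0.474). The slow myosin heavy chain Myh7 was not detected by any of its 3 probes on any array, and Myl3, a slow light chain, was detected on 1 array only.

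Of the 3 developmental isoforms, 2 were measured, and Myh3, the embryonic myosin, was not named on the annotation. Myh8 read 10.93 and 11.36 in the tamoxifen controls, 12.48 and 12.90 in the knockdown, 12.12 under GFP and 11.13 with stabilized β-catenin. The knockdown arrays were the highest, and the GFP array stood above both tamoxifen controls. The stabilized array lay between the tamoxifen controls at this probe, while at 1 of the other 2 probes of Myh8 it was the lowest of all, just below tamoxifen control replicate 1. The knockdown difference was 1.55 ± 0.23 (limma, adjusted p = 0.19), and the other probes of Myh8 gave 1.63 and 1.68. Actc1 read 9.25 and 10.00, against 11.30 and 11.28 in the knockdown, with 10.11 for GFP and 8.24 for the stabilized wound. Its knockdown arrays were nearly equal, and the difference was 1.66 ± 0.27 (adjusted p = 0.19). Across classes, knockdown replicate 2 exceeded replicate 1 by a median of 0.69 in the fast genes, where all 11 were higher, and by 0.40 in the slow and 0.20 in the developmental genes, where Tnnc1, Tnnt1 and Actc1 were higher in replicate 1.

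Filament proteins shared by fibre types, and those of the Z disc and M band, were also higher in the knockdown. Acta1 read 13.83 and 14.51 in the tamoxifen controls, 14.93 and 15.44 in the knockdown, 14.49 under GFP and 12.73 with stabilized β-catenin. The difference was 1.01 ± 0.30 (limma, adjusted p = 0.355). Tpm2, a tropomyosin of slow and also of smooth muscle, read 11.50 and 12.16 against 12.81 and 13.29, with 11.80 for GFP and 10.31 for the stabilized wound. By this probe Tpm2 differed by 1.21 ± 0.29 (adjusted p = 0.264), but its other detected probe differed by -0.27 in the knockdown and by 0.06 in the stabilized wound. Tpm2 was the 1 gene of 14 with several detected probes whose probes disagreed in sign. The giant spring protein titin, Ttn, differed by 1.36 ± 0.30, and Lmod3, which nucleates thin filaments, by 1.48 ± 0.28.

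At the Z disc, Csrp3, a stretch-linked LIM protein, read 10.86 and 11.19 in the tamoxifen controls, 12.19 and 12.72 in the knockdown, 11.28 under GFP and 9.96 with stabilized β-catenin, a knockdown difference of 1.43 ± 0.24 (limma, adjusted p = 0.19). Actn2, the actinin that crosslinks actin in all fibres, read 10.65 and 11.32 against 11.94 and 12.53, with 11.27 for GFP and 9.42 for the stabilized wound. It differed by 1.24 ± 0.31 (adjusted p = 0.279). Tcap, which caps titin at the Z disc, differed by 1.45 ± 0.28, and the LIM proteins Ldb3 and Pdlim3 by 1.35 ± 0.28 and 1.26 ± 0.36. Myotilin, Myot, differed by 0.98 ± 0.34. The M band proteins Myom2 and Myom1, which link myosin filaments, differed by 1.53 ± 0.42 (adjusted p = 0.328) and 0.84 ± 0.38 (adjusted p = 0.531). Myom2 read 8.02 and 8.88 against 9.52 and 10.44, with 9.07 for GFP and 6.87 for the stabilized wound. Myom1 read 8.0 and 8.64 against 8.70 and 9.62, with 8.20 and 6.82, so that its higher control nearly met its lower knockdown array. Des, the muscle intermediate filament, read 10.84 and 11.46 against 12.29 and 12.91, with 11.29 for GFP and 10.04 for the stabilized wound, and differed by 1.45 ± 0.31 (adjusted p = 0.232).

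Nearly all of these genes read lower when β-catenin was stabilized than under the GFP virus. This comparison rests on a single array on either side, so it has no replicate check and no test. Of the 35 genes 33 were lower, where 45.7% of all genes were, and 30 were at least 2-fold lower (4.19% of all genes), with a median log2 difference of -1.76 against 0.04 over all genes. The stabilized array was the lowest of the 6 in 31 genes (23.3% of all genes). Myl2 and Myot were detected on neither array. Mylk2, Mybpc2, Lmod3 and Ldb3 were not detected on the stabilized array, and against the lowest detected signal they were at least 2.22-fold, 9.32-fold, 1.96-fold and 1.68-fold lower. Taking these as bounds, 28 of the 33 genes detected on either array were at least 2-fold lower, and of the 29 detected on both arrays 26 were.

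By class, the fast genes had a median of -1.94 (all 11 at least 2-fold lower), the slow genes -1.66 (5 of 6) and the shared filament proteins -1.65 (4 of 4, with the bound of Lmod3 just under 2-fold). The Z disc genes had a median of -1.27 (6 of 8, with the bound of Ldb3 under 2-fold), the M band genes -1.79 (2 of 2) and the desmin and Cryab pair -0.55 (1 of 2). Mylpf was 4.84-fold lower and Tnnc2 4.42-fold, while the slow Tnnc1 and Tnnt1 were 3.08-fold and 2.37-fold lower. Acta1 was 3.38-fold, Tcap 5.37-fold and Myom2 4.58-fold lower. Of the developmental pair, Actc1 was 3.66-fold lower, and Myh8 differed by -0.99 (log2) at the probe used and by -1.04 and -1.45 at its other probes. The GFP array itself lay within the range of the tamoxifen controls for 17 genes, above both for 15 and below both for 3 (Myl2, Myot and Ldb3). The shares of all genes in these positions were not computed, so the counts only describe the listed genes. Age, virus, tamoxifen and floxed exons differ between these control groups and cannot be told apart.

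**Figure D2:**
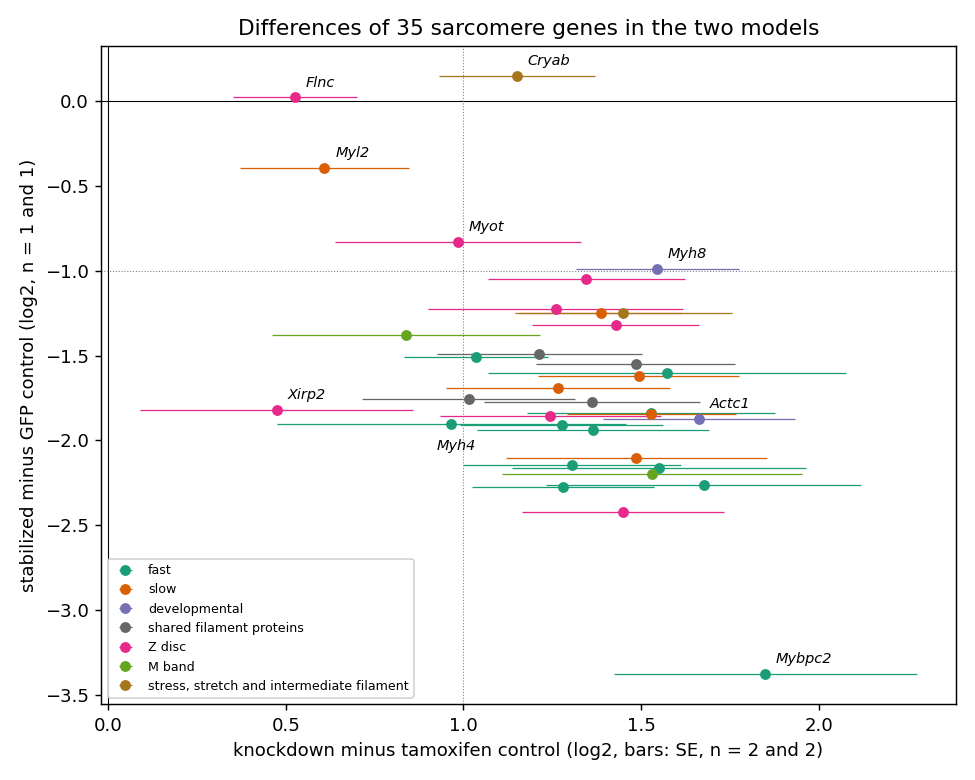
Log2 difference of each of the 35 genes between knockdown and tamoxifen control (horizontal axis, bars are SE) and between stabilized and GFP control (vertical axis, no replicates). Dotted lines mark 2-fold, and most points lie at the lower right, higher in the knockdown and lower in the stabilized wound, with Cryab and Flnc at or just above 0 on the vertical axis.

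Over both models, 33 of 35 genes were higher in the knockdown and lower in the stabilized wound (26.8% of all genes), and 27 were so by at least 2-fold both times (1.15% of all genes). In 30 genes the stabilized array lay below all 3 controls and both knockdown arrays above all others, an order found in 6.72% of all genes. The exceptions were Myh4, Flnc, Xirp2, Cryab and, at the probe used, Myh8. A slope over all 6 arrays, with the β-catenin level coded as -1, 0 and 1 and the model as a term, was negative in all 35 genes, with a median of -1.45 per step against 0.00 over all genes. After adjustment 0 passed (limma, smallest adjusted p = 0.124), as did 0% of all genes, and 32 had an unadjusted p under 0.05 (5.48% of all genes with a negative slope). The steepest slope was that of Mybpc2, at -2.36 ± 0.44. The count of 0 depended on the scaling. When the arrays were scaled to a common median in place of quantile normalization, 29 of 35 passed with a negative slope, among 121 of all genes (1.18%, or 1.81% in either direction), with Mybpc2 at an adjusted p of 0.000409, and Myl2, Myot, Flnc, Xirp2, Myom1 and Cryab did not. That fit had 22.69 prior degrees of freedom, against 2.71 for the slope after quantile normalization. Its p-values thus lean far more on a spread pooled over all genes. Under that scaling the stabilized array was 0.57 (log2) above the GFP array in the median of all genes, and the sarcomere median was -1.20, or -1.77 relative to that shift.

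Fast and slow counterparts from 6 pairs of related genes were set side by side. In the knockdown the fast member had the larger difference in 4 pairs and the slow member in 2. Tnni2 and Tnni1 differed from control by 1.28 ± 0.28 and 1.53 ± 0.24 (SE), and Myoz1 and Myoz2 by 1.55 ± 0.41 and 1.49 ± 0.37, in each case within their errors. The widest gap was that of Mylpf and Myl2, at 1.28 ± 0.26 and 0.61 ± 0.24, where Myl2 was near the limit of detection. In the stabilized wound Myl2 had no measured difference, since it was detected on neither adenovirus array, and in the other 5 pairs the fast member was lower by more than the slow one, with Mybpc2 taken at its bound. Tnnt3 differed by -1.84 against -1.25 for Tnnt1, and Tnnc2 by -2.14 against -1.62 for Tnnc1, while Tnni2 (-1.91) and Tnni1 (-1.85) were nearly alike. There are no replicates behind these last values, and the difference between classes was not tested.

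**Figure D3:**
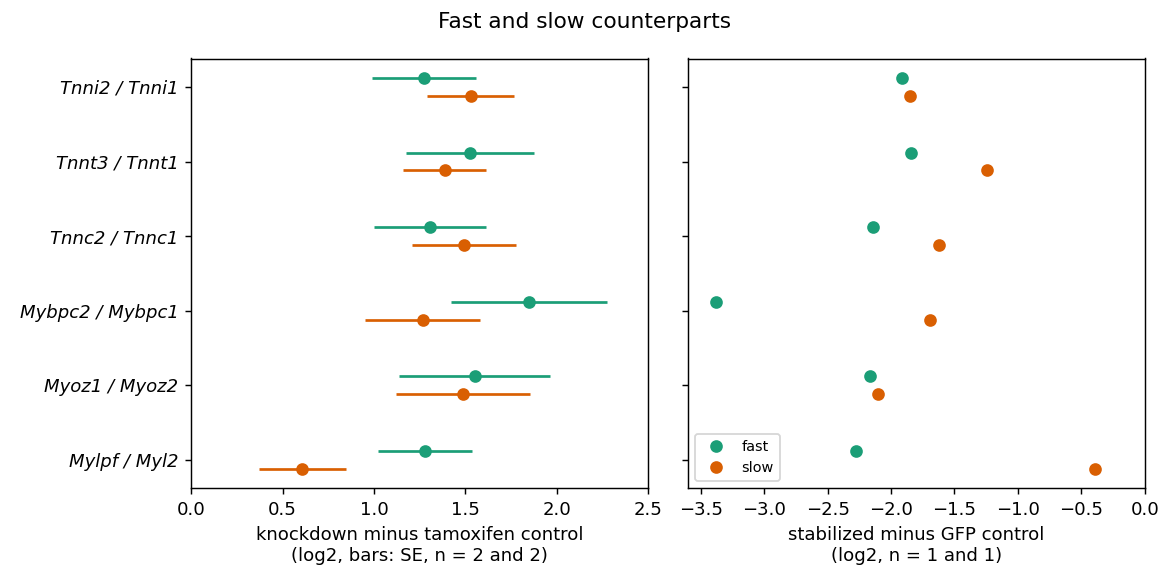
Log2 differences of fast (green) and slow (orange) counterparts in the knockdown (left, bars are SE) and in the stabilized wound (right, no replicates). The pairs overlap on the left except Mylpf and Myl2, and on the right the green point is left of the orange one in the 5 pairs whose slow gene was detected. On the right Myl2 was not detected on either array and Mybpc2 was not detected on the stabilized array.

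A few genes left the shared profile. When the median of the 35 genes on each array was subtracted, the departure over the 6 arrays had an SD of 1.5 (log2) for Xirp2, 0.96 for Flnc, 0.78 for Mybpc2 and 0.69 for Cryab, but 0.08 for both Actn2 and Mybpc1. Mybpc2 kept the shape of the profile, with a correlation of 0.991 with the median of the other genes. For Xirp2, Flnc and Cryab this correlation was -0.008, 0.34 and 0.755. Xirp2, an actin-binding repeat protein of the Z disc region, read 8.19 under GFP and 6.36 with stabilized β-catenin. It was not detected in either tamoxifen control (5.00 and 5.82) or in knockdown replicate 1 (5.48), and read 6.28 in knockdown replicate 2. The GFP array was thus the highest by far, the stabilized array stood close to knockdown replicate 2, and knockdown and tamoxifen control overlapped (0.48 ± 0.38; limma, adjusted p = 0.71). Flnc, the muscle filamin that gathers at damaged Z discs, read 10.11 and 10.37 in the tamoxifen controls, 10.63 and 10.91 in the knockdown, 10.69 under GFP and 10.71 with stabilized β-catenin. It differed by 0.53 ± 0.17 in the knockdown (adjusted p = 0.406) and by 0.02 in the stabilized wound. Cryab, a small heat shock protein that protects desmin and the Z disc and is also made outside muscle, read 9.85 and 10.26 in the tamoxifen controls, 11.01 and 11.40 in the knockdown, 10.10 under GFP and 10.25 with stabilized β-catenin. Its knockdown difference was 1.15 ± 0.22 (adjusted p = 0.217), whereas the stabilized array was higher by 0.15. With the arrays scaled to a common median, Flnc and Cryab were 0.62 and 0.77 higher on the stabilized array, or 0.05 and 0.19 above the shift of all genes.

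**Figure D4:**
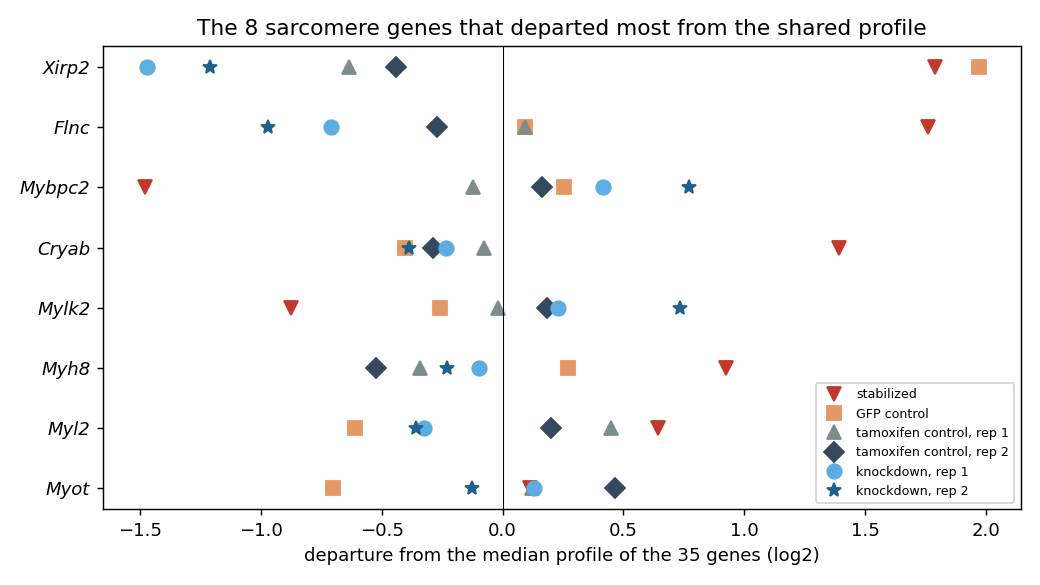
Departure from the median profile of all 35 genes, in log2 units, on each array, for the 8 sarcomere genes where it was largest. Xirp2 is high on both adenovirus arrays, while Flnc and Cryab are high on the stabilized array only. Myl2 and Myot were not detected on the adenovirus arrays, nor Mybpc2 and Mylk2 on the stabilized one.

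Skeletal muscle genes outside the sarcomere differed by similar amounts. This list, of genes for calcium handling, energy supply and muscle identity, was drawn up with earlier results known. All 27 measured of 35 listed were higher in the knockdown (median 1.31, range 0.32 to 1.78), with 24 at an unadjusted p under 0.05 and 0 past the adjusted threshold (limma, smallest adjusted p = 0.19). All 27 read lower with stabilized β-catenin (median -1.68), and for 25 the gap was 2-fold or more. The smallest unadjusted p belonged to Pvalb, a calcium buffer of fast fibres, Casq1, which binds calcium stored in the reticulum, the mitochondrial creatine kinase Ckmt2 and Chrng, the fetal subunit of the acetylcholine receptor, at 1.52 ± 0.17, 1.31 ± 0.16, 1.66 ± 0.26 and 1.77 ± 0.29. The calcium channel Ryr1, at 1.48 ± 0.24, had the same p as Chrng to 3 digits (0.00177, limma, unadjusted). Myod1, Myf5 and Pax7, of muscle precursors, were below the detection rule. The muscle identity genes Myog and Myf6 of the same list were measured. They differed by 1.23 ± 0.29 and 0.95 ± 0.45 in the knockdown (limma, unadjusted p = 0.0085 and 0.0879). Both read lower on the stabilized array than on the GFP array.

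Genes of other cell types were read beside them, and 0 of these passed in the knockdown. Smooth muscle genes, which could share Tpm2 and Des, had a median of -0.09 in the knockdown (3 of 7 measured higher, range -0.46 to 0.31, of 10 listed) and 0.27 in the stabilized wound. Their array medians, relative to each gene's 6-array mean, lay between -0.22 and 0.26. The smooth muscle actin Acta2 differed by -0.44 ± 0.13 in the knockdown and by 0.21 in the stabilized wound. Tpm1, a tropomyosin on this list that striated muscle also makes, differed by -0.43 ± 0.19 and 0.34, opposite in sign to most sarcomere genes. Of 8 heart muscle genes 2 were measured, Myl4, which embryonic skeletal muscle also makes (1.28 ± 0.25), and Nppb (-0.52 ± 0.26), while Myh6, Tnni3, Mybpc3, Myl7 and Nppa were below the detection rule. Fat cell genes, from the layer next to the skin muscle, were higher in the knockdown in all 5 measured of 10 (median 0.86), with Lpl and Adipoq at 0.54 ± 0.16 and 1.36 ± 0.90. Their array median was 1.67 in knockdown replicate 2 and -0.33 in replicate 1, against -0.07 in both controls, while the sarcomere median was 1.32 and 0.78 in those 2 knockdown arrays. Keratinocyte genes were lower in 8 of 10 (median -0.50, range -1.66 to 0.02), 5 of them at an unadjusted p under 0.05 and 0 past the adjusted threshold (limma, smallest adjusted p = 0.19). Krt14 and Krt10, the 2 with the highest mean level, were the 2 that were not lower, at 0.02 ± 0.14 and 0.01 ± 0.13. Both read near the top of the intensity scale (Krt14 between 15.79 and 15.96, Krt10 between 15.27 and 15.98). Krt16 and Krt17, which were lower, read between 14.44 and 15.74 and between 15.01 and 15.68. Whether differences were flattened at such levels was not tested. The 5 lower ones, named after their values were seen, were the wound keratins Krt6a (-1.66 ± 0.20), Krt16 (-0.88 ± 0.20) and Krt17 (-0.61 ± 0.13) and the integrins Itga6 (-0.79 ± 0.13) and Itgb4 (-0.70 ± 0.14). Fibroblast genes had a median of -0.08 (10 of 10 measured, Dcn -0.07 ± 0.16 and Col1a1 -0.27 ± 0.29), endothelial genes -0.15 (8 of 8, Esam -0.02 ± 0.17 and Emcn -0.28 ± 0.14) and macrophage and neutrophil genes -0.02 (7 of 10, S100a8 -0.47 ± 0.13 and S100a9 -0.09 ± 0.16). Of these last 7 genes 3 were higher and 4 lower (range -0.47 to 0.53), with the neutrophil enzyme Mpo, named after its value was seen, the highest at 0.53 ± 0.14. In the stabilized wound the medians were 0.26 for fat cell, -0.07 for keratinocyte, 0.30 for fibroblast, 0.24 for endothelial and -0.06 for macrophage and neutrophil genes. The last list ranged from -1.99 to 0.53, with 3 genes higher and 4 lower, and 2 neutrophil genes were at least 2-fold lower there, as the sarcomere genes were: Csf3r, the receptor for granulocyte colony-stimulating factor (-1.99), and S100a9 (-1.06). The part of these lists in the sarcomere differences was not tested.

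**Figure D5:**
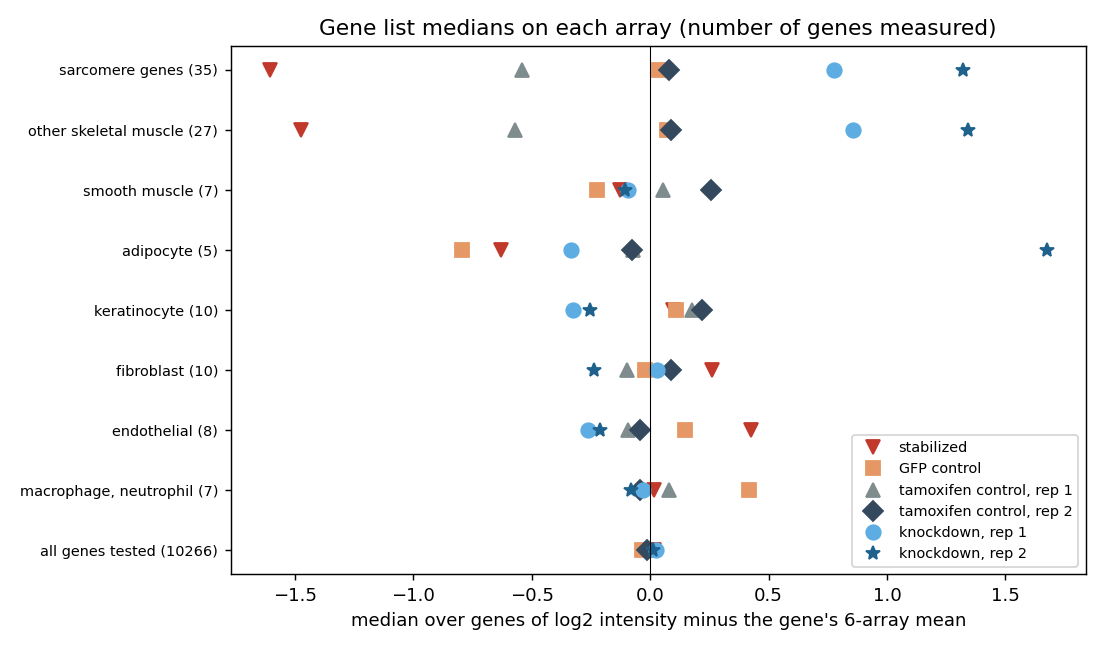
Median of each gene list on each array, as log2 intensity minus the gene's 6-array mean, with the number of measured genes in parentheses. Sarcomere and other skeletal muscle genes run from the stabilized array (-1.61 and -1.48) to knockdown replicate 2 (1.32 and 1.34), while the smooth muscle list stays between -0.22 and 0.26.

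Values are lacking for the other listed genes. Myh2, Myh3, Xirp1, Smpx and Mybph were not named on the annotation, and Myh7, Myl3, Neb, Lmod2 and Ankrd2 had no probe that met the detection rule. Of the 35 measured, 28 were detected on all 6 arrays, and those 28 had a median of 1.36 in the knockdown and -1.76 in the stabilized wound. The other 7 could pass through the arrays on which they were high. Where a gene had several detected probes, 13 of 14 genes agreed in sign in both models. Of the genes whose probes agreed, Ldb3 had the widest spread, from 0.99 to 1.71 in the knockdown and from -2.14 to -0.96 in the stabilized wound, and the probes of Myl1 ranged from 1.04 to 1.52 and from -2.59 to -1.51.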

How the data were processed

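Bead signals were deposited by the authors as intensity on a linear scale, not normalized between arrays, each with a detection p-value, per the file headers. The authors also deposited log2 values, whose columns ranked probes as the intensities did (Spearman correlation 1, medians 5.12) and lay within 0.0916 of those computed here. The submitters' processing notes name limma and R 2.14, without settings. Bead summarization software and array slides are not given in the sources used here, so no batch was tested. No sample column was left out, and 2 lines held no value.

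Of 45281 probes, 34885 had 1 gene in the platform annotation, 18 had several and 10378 were not listed. Symbols were updated by Entrez number (34807 matched) against RefSeq genes of GRCm38.p6. With limma 3.58.1 in R 4.3.3, neqc corrected background from the detection p-values, added an offset of 16 and quantile-normalized, which shrinks differences of dim probes and removes a shift shared by most genes. Probes detected at p under 0.01 on 2 arrays were kept (17410), with the brightest per gene. Knockdown was tested by lmFit and eBayes over 4 group means (2 residual and 2.92 prior degrees of freedom), two-sided, with Benjamini-Hochberg adjustment over 10266 genes at 0.05. The arrays, 2 or 1 per group, limit the precision. "At least" folds set the bright group against the dim array's lowest detected signal, or the probe's own signal where that was higher. The sarcomere genes, their classes and the other lists were chosen with earlier results of these data known. Values on every array were given for the 3 genes with the highest mean in the fast and slow classes, 2 in other classes, all developmental genes and those at the extremes, with Myh4 and Myl2 added after their values were seen. On simulated data of 10266 genes, the knockdown test recovered 18% of 2-fold and 88% of 4-fold changes, with 8 unchanged genes called. The trend test recovered 64% and 98%, with 6. The simulated noise was independent between genes and arrays, and the trend changes were equal and opposite in knockdown and stabilized groups. It held no shift shared by genes between replicates, as the sarcomere genes had, so the percentages do not give the power for these genes. The labels do not say whether replicate numbers pair samples. The correlation of replicate deviations over all genes was 0.0385, which cannot exclude a pairing in the sarcomere genes. In these, replicate 2 was the higher in all 35 genes in the controls and in 32 in the knockdown.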

Additional observations from a re-analysis of the deposited data

How the results depend on the processing

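Besides the values given above, each sarcomere result was recomputed without background correction, with an offset of 50, with arrays scaled to a common median, from the deposited log2 values, with no detection rule or detection on all 6 arrays, with the mean of all probes, and, for the knockdown and the trend, without each tamoxifen array in turn. The knockdown was also fitted with only the 4 tamoxifen arrays, with a replicate block and with a robust, intensity-dependent prior. In none of these did a sarcomere gene pass in the knockdown (limma, smallest adjusted p of 0.0909 to 0.869), and all 35 genes stayed higher where they were measured. With the replicate block 0 passed (limma, smallest adjusted p = 0.112), as did 0 of all 10266 genes. At an unadjusted p under 0.05 there were 35 under the block. The share of all genes at that level was not computed for this fit, so the count only describes the listed genes. The labels share only a number, so the block has no basis in the design. The median in the knockdown lay between 0.98 and 1.68. The number at least 2-fold higher ranged from 17 (without tamoxifen control replicate 1) to 32 when 1 array was left out. Over all 10266 genes this number ranged from 137 to 320 in the same fits. The stabilized median was -1.23 without background correction and -1.20 with common-median scaling, and with the same scaling 29 genes passed in the trend. The cause was not tested. In the other settings 0 passed in the trend (smallest adjusted p of 0.0853 to 0.469). Dim genes, among them Myl2, Myot and Xirp2, are limited by signal near background.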
